A study of Mus musculus with 4 samples.

Results

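A set of 10 interferon-induced genes with antiviral products was followed in B16 cells, a mouse melanoma line: Ifit1, Ifit3, Isg15, Usp18, Rsad2, Bst2, Ifitm3, Ifi35, Parp9 and Parp14. They were taken by symbol, and all 10 members were found among the 53465 gene rows of the table of counts. The 4 libraries are 2 of control cells and 2 of cells after 4 h with EM-plasma, which the labels describe as plasma treated with exosome-mimetic nanovesicles (EMs). The labels do not say what the plasma was, what the control cells received or when the controls were collected. Nothing says that the 2 libraries of a group came from separate cultures, so the p-values speak only to the spread among these 4 libraries, and that spread may be technical. The question was whether EM-plasma-treated cells carried more or less of these transcripts than control cells.

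Interferons bind receptors at the cell surface, and Janus kinases then phosphorylate transcription factors of the STAT family. With IRF9 these form ISGF3, a complex that binds the interferon-stimulated response element (ISRE) in front of many genes. Cells also keep a low level of the same transcripts without added interferon. The products block viral RNA, viral entry and viral release, or feed back on the receptor.

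Total counts per library lay between 46295133 and 49367932. Melanocyte markers were abundant, with a summed level between 11424 and 11789 CPM (counts scaled by library size with TMM factors) for 10 of 10 tested genes, of which 0 were called. Of 10 macrophage markers 7 had no read in any library, among them Ptprc, Adgre1 and Itgam, and the list's sum was 1.202 to 1.686 CPM in controls and 1.59 to 1.93 CPM in treated cells. Cd68 made up most of that sum. Lyz2 went the other way, with 14 and 16 reads in controls and 4 and 8 in treated libraries, and neither gene was called. Of 10 lymphocyte markers 7 also had no read, and the list summed to 0.253 to 0.386 CPM in controls and 0.107 to 0.129 CPM in treated cells. Only 1 of them, Cd79a, could be tested, and it was not called. It had 18 and 11 reads in controls and 6 and 4 in treated libraries. Fibroblast markers summed to 57.7 and 51.6 CPM in controls and 56.3 and 54.4 CPM in treated cells. Most of that sum came from Col1a2 and Pdgfrb, and 0 of the 4 tested genes were called. The red cell and platelet list reached at most 0.654 CPM in a library, and the endothelial list at most 0.190 CPM. In bulk RNA, fewer cells with a transcript and less transcript per cell cannot be told apart.

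The stretches of promoter that hold the ISRE are shown first. The members were picked as interferon-induced genes, so a motif of the interferon response is not a trait independent of that choice. RefSeq windows on GRCm38.p6, from 250 bases before to 50 after the transcription start, were read for 7 of the 10 members. The ISRE core was searched on both strands as GAAA, any 2 bases and GAAA again, which reads as TTTC, any 2 bases and TTTC from the other strand. It was present in 6 of the 7 windows, against 3.44% of all 32851 windows of that length. Below, each sequence runs 5′ to 3′ in the direction of its gene, and capitals mark the core matches.
Ifit1: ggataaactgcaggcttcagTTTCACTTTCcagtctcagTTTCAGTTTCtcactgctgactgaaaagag
Ifit3: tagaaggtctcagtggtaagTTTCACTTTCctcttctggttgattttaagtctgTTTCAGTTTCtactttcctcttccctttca
Isg15: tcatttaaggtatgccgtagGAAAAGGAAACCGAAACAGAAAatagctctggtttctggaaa
Rsad2: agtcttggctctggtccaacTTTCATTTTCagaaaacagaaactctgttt
Bst2: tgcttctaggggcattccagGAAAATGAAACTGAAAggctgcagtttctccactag
Ifitm3: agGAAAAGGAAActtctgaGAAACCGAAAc

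The Ifit1 stretch lies at chr19:34640765-34640833 on the plus strand, with matches ending 95 and 76 bases before the start, written -95 and -76. The Ifit3 stretch lies at chr19:34583353-34583436 on the plus strand, and its near-identical relative Ifit3b holds the same 84 bases at chr19:34607749-34607832. Cores that overlap, 3 in number, make up the Isg15 run of capitals at chr4:156200855-156200916 on the minus strand, between -78 and -57. Rsad2 held 1 core, at chr12:26456543-26456592 on the minus strand. Bst2 held 2 that overlap, at chr8:71537567-71537622 on the minus strand. In Ifitm3 both cores lay after the RefSeq start, from position 3 to 29, at chr7:141010715-141010744 on the minus strand. The palindromic STAT dimer motif GAS, searched as TTC, any 3 bases and GAA, occurred in 3 of the 7 windows, against 8.30% of all windows. Those 3 were Bst2 and Ifitm3, where it overlapped an ISRE core, and Ifi35. A match is a description of letters and not evidence of a bound site.

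**Figure D1:**
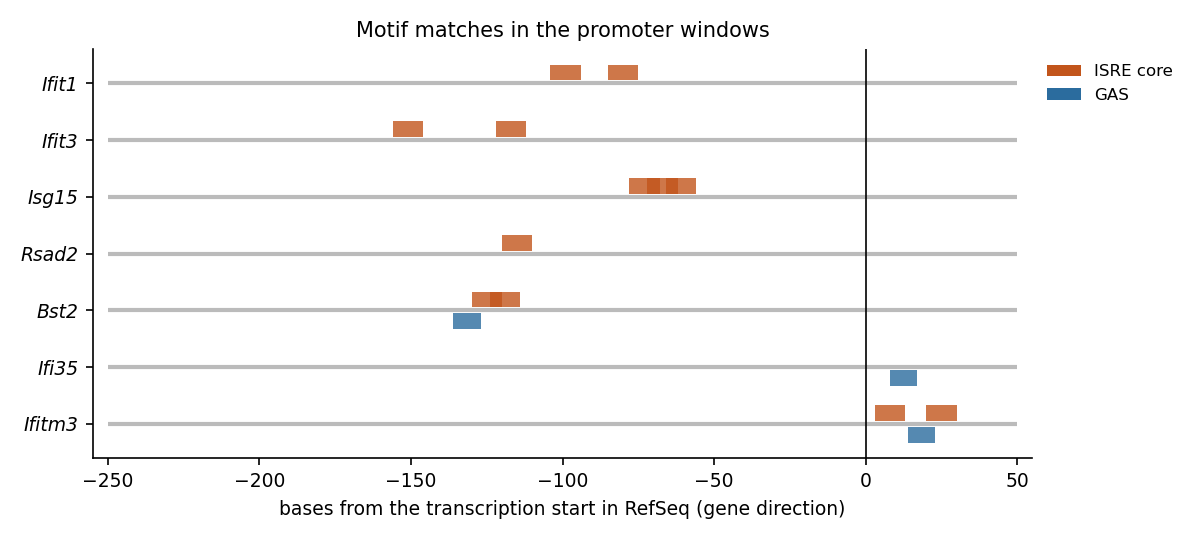
ISRE core (orange) and GAS (blue) matches along the 7 promoter windows, in bases from the RefSeq start on the horizontal axis. In 5 genes the ISRE core matches lie upstream of the start, in Ifitm3 they lie after it, and Ifi35 has none.

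Of the 10 effectors 8 were lower after EM-plasma than in controls and 0 were higher (edgeR quasi-likelihood test, Benjamini-Hochberg adjusted p below 0.05 over all 13664 tested genes). Across all tested genes 2.88% were called lower, 3.34% higher and 6.21% in either direction. Ifit1, Ifit3, Isg15, Rsad2, Bst2, Ifi35, Ifitm3 and Parp14 fell, and Usp18 and Parp9 did not pass. All 10 members passed the filter on low counts, with 69 to 1895 reads in a library. In 10 of 10 members both treated libraries lay below both controls, as they did in 24.8% of all tested genes, beside 24.3% with both treated libraries above and 49.1% with no overlap in either direction. The members' median log2 fold change was -0.51 (range -0.75 to -0.21), beside a median of -0.0027 over all tested genes. Their summed level was 133 and 135 CPM in control 1 and 2, and 101 and 105 CPM in EM-plasma 1 and 2. The members were picked with earlier results of these data known, so their shared direction is a description and carries no test of its own. The count changed when a library was left out, and the share of all tested genes called lower also fell in each of those fits. Dropping control 1 left 2 members called (Ifit1 and Ifit3), and dropping control 2 left 0, with all genes called then numbering 71. Dropping EM-plasma 1 left 3 (Ifit1, Ifit3 and Ifitm3), as did dropping EM-plasma 2 (Ifit1, Ifit3 and Isg15). The fits without an EM-plasma library pooled the variance over genes almost completely, with 14081 and 14097 total degrees of freedom against 27.5 in the reported fit, and their calls rest on that pooling. All 10 log2 fold changes stayed below 0 in each of these fits, with a median between -0.50 and -0.46. DESeq2 called 4 (Ifit1, Ifit3, Rsad2 and Ifitm3), beside 2.33% of all genes called lower in that fit. With no filter on low counts edgeR called 0, beside 0.0044% of all genes called lower.

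**Figure D2:**
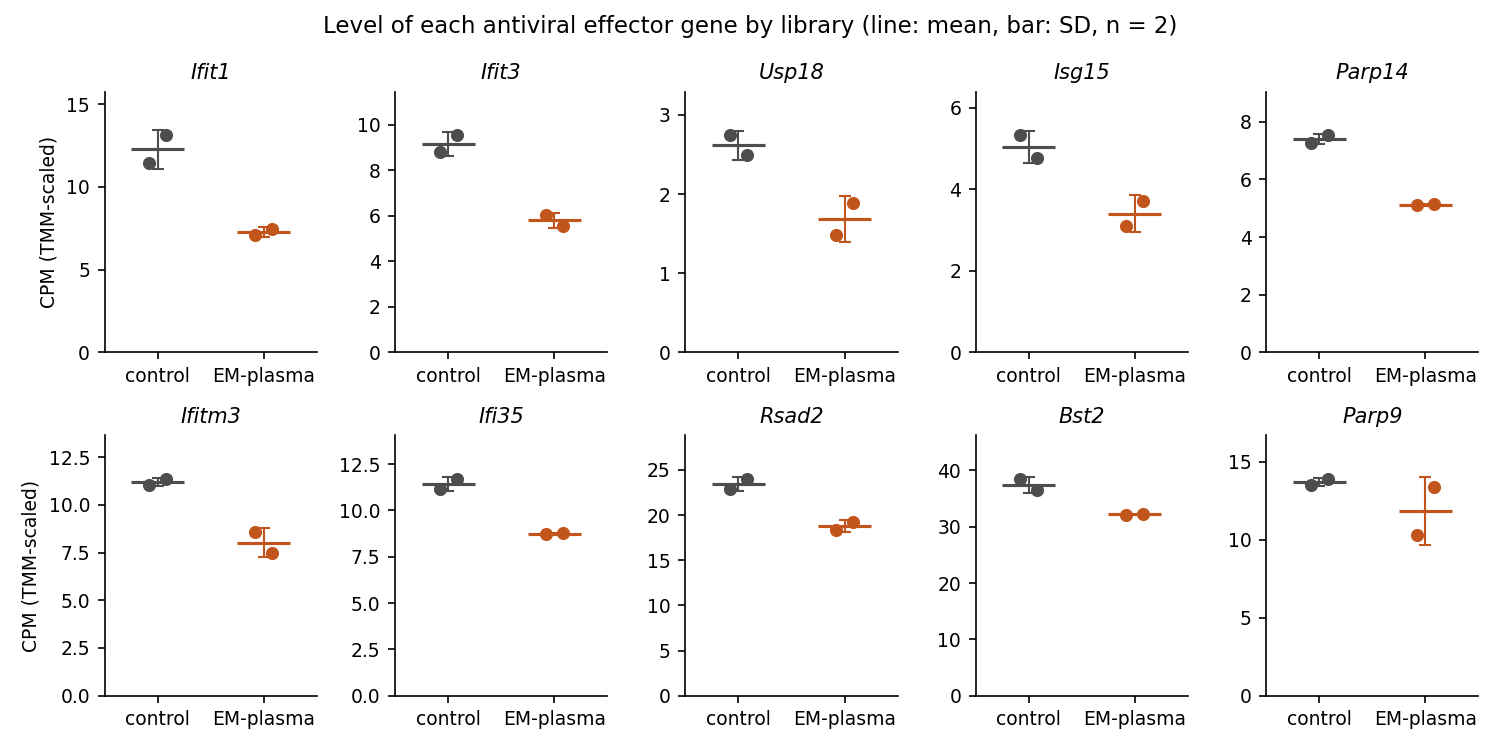
Level of each effector gene in the 4 libraries, in TMM-scaled CPM on axes that start at 0. Points are libraries, lines are group means and bars are SD (n = 2). Both treated libraries lie below both controls in every panel, and in Parp9 EM-plasma 2 (13.4 CPM) lies just under the controls.

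Of the IFIT proteins, IFIT1 binds viral RNA that lacks the cap methylation of host messages and keeps it from being translated. Ifit1 (ENSMUSG00000034459, chromosome 19, 34640871 to 34650009 on GRCm38) stood at 11.4 and 13.1 CPM in the controls and at 7.08 and 7.48 CPM in the treated libraries. The controls differed more from each other than the treated libraries did, and the groups did not overlap. Ifit1 was 1.69-fold lower, from 12.3 ± 1.19 to 7.28 ± 0.281 CPM (SD, n = 2 per group; log2 fold change -0.75, SE 0.11, edgeR adjusted p = 3.80e-05). Its call held in 3 of the 4 fits without a library and ended without control 2 (adjusted p = 0.086). Of its 50-base words 7.06% also occur in Ifit1bl2.

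Ifit3, whose human counterpart stabilises IFIT1 on RNA, lies upstream in the same chromosome 19 cluster (ENSMUSG00000074896, 34583531 to 34588731). It measured 8.80 and 9.53 CPM in controls against 6.03 and 5.56 CPM after treatment, again without overlap. The fall was 1.58-fold (log2 fold change -0.66, SE 0.12, edgeR adjusted p = 0.000729), and it too was not called without control 2 (adjusted p = 0.128). Of the 50-base words in Ifit3 transcripts 51.2% also occur in Ifit3b, so the counting could have split reads between the pair. Ifit3b itself fell 2.08-fold, from 3.31 and 2.93 CPM to 1.69 and 1.31 CPM (log2 fold change -1.05, SE 0.22, edgeR adjusted p = 0.00299). Without control 1 and without control 2 the Ifit3b call ended (adjusted p = 0.0831 and 0.142). With the rows of the pair summed, a choice made after seeing the data, the log2 fold change was -0.75 (SE 0.11, edgeR adjusted p = 3.18e-05).

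Ifit2, another family member from the same cluster, was picked after its values were seen. It was at 83.1 and 91.4 CPM in controls and at 79.0 and 83.9 CPM in treated cells, where the groups overlapped. Its log2 fold change was -0.10 (95% interval -0.22 to 0.020, edgeR adjusted p = 0.367), outside the interval of Ifit1 (-0.98 to -0.53). The count of Ifit1 over that of Ifit2 was 0.138 and 0.144 in the controls and 0.0896 and 0.0891 in treated libraries. For Ifit3 over Ifit2 it was 0.106 and 0.104, then 0.0763 and 0.0663. Both ratios were separate between groups, although 2 libraries against 2 cannot reach an exact two-sided permutation p below 0.333. Ifit1bl1, from the same cluster, had 8 reads in each control and 6 and 13 in the treated libraries, and was not tested.

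Isg15 encodes a ubiquitin-like protein that is joined to other proteins during the interferon response, and Usp18 encodes the protease that removes it and that also damps signalling at the type I receptor. Isg15 (ENSMUSG00000035692, chromosome 4, 156199424 to 156200818) was at 5.32 and 4.77 CPM in controls and at 3.09 and 3.72 CPM after EM-plasma. Treated libraries were the lower pair, and the gap between groups exceeded that within either. The fall was 1.48-fold (log2 fold change -0.57, SE 0.16, edgeR adjusted p = 0.0309). That call held without EM-plasma 2 (adjusted p = 0.0311) and ended without any other library (adjusted p from 0.157 to 0.351).

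Usp18 (ENSMUSG00000030107, chromosome 6, 121245906 to 121270917) was the least expressed member by CPM, with 135 and 118 reads in the controls and 69 and 88 in the treated libraries. A gene on the opposite strand, Gm44148, overlaps 4.44% of its exon bases. In CPM these were 2.74 and 2.49 against 1.48 and 1.89, with no overlap. Its log2 fold change of -0.63 was close to that of Ifit3 in size but had an SE of 0.23 and did not pass (95% interval -1.10 to -0.17, edgeR adjusted p = 0.0959). Of the enzymes that attach ISG15, the conjugating enzyme Ube2l6 fell 1.31-fold, from 10.3 and 10.48 to 8.19 and 7.69 CPM (edgeR adjusted p = 0.0288), a call that ended whichever library was left out. Named after their values were seen, the activating enzyme Uba7 (log2 fold change -0.52, SE 0.30, adjusted p = 0.364) and the ligase Herc6 (-0.22, SE 0.075, adjusted p = 0.0819) did not pass.

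Rsad2 encodes viperin, which makes a chain-terminating nucleotide that stops viral polymerases. Rsad2 (ENSMUSG00000020641, chromosome 12, 26442746 to 26456452) was at 22.93 and 24.01 CPM in controls and at 18.4 and 19.2 CPM in treated cells. Replicates of either group lay close together and the groups were apart. It was 1.25-fold lower (log2 fold change -0.32, SE 0.077, edgeR adjusted p = 0.0109). Cmpk2, the nucleotide kinase gene beside Rsad2 that is transcribed away from it, was at 18.5 and 17.4 CPM in controls and 13.9 and 15.9 CPM after treatment and did not pass (log2 fold change -0.27, SE 0.089, adjusted p = 0.0647). The ratio of Rsad2 to Cmpk2 counts was 1.24 and 1.38 in controls and 1.33 and 1.21 in treated libraries, which overlapped. The Rsad2 call ended in each fit without a library (adjusted p from 0.0527 to 0.269).

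Bst2 encodes tetherin, which ties budding virus particles to the cell membrane, and it was the most abundant member. Bst2 (ENSMUSG00000046718, chromosome 8, 71534255 to 71537456) was at 38.5 and 36.5 CPM in controls and at 32.1 and 32.3 CPM after EM-plasma. The treated libraries nearly coincided below the controls. Its 1.16-fold fall was the smallest among the called members (log2 fold change -0.22, SE 0.066, edgeR adjusted p = 0.043). Upper quartile scaling ended that call (adjusted p = 0.0545), and so did leaving out any library (adjusted p from 0.102 to 0.466). Bst2 also marks plasmacytoid dendritic cells, and its list holds 5 other markers. Of these, Ly6d and Ccr9 had no read in any library and Siglech had 1 read, in EM-plasma 2. Tcf4 lay between 76.8 and 93.7 CPM and Il3ra between 11.5 and 13.3 CPM. With Bst2 included the list summed to 140 and 142 CPM in controls and 126 and 122 CPM in treated cells, and Tcf4 was called lower along with Bst2. The part of such cells in the Bst2 result was not tested.

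Ifitm3 encodes a membrane protein that blocks fusion of enveloped viruses in endosomes. Ifitm3 (ENSMUSG00000025492, chromosome 7, 141009586 to 141010770) was at 11.1 and 11.4 CPM in controls and at 8.58 and 7.48 CPM in treated cells. Here the treated libraries were spread more widely than the controls, and the groups stayed apart. It fell 1.40-fold (log2 fold change -0.48, SE 0.11, edgeR adjusted p = 0.006), and the call held without EM-plasma 1 (adjusted p = 0.00767) and ended without any other library (adjusted p from 0.0721 to 0.198). Its relative Ifitm2, also on chromosome 7, was at 25.9 and 24.8 CPM in controls and 25.9 and 23.8 CPM after treatment, which overlapped. The Ifitm2 log2 fold change was -0.032 (95% interval -0.18 to 0.12, adjusted p = 0.865), and it turned to 0.026 without EM-plasma 2. Counts of Ifitm3 over those of Ifitm2 were 0.427 and 0.458 in controls and 0.332 and 0.315 in treated libraries, so the ratio was lower in both treated libraries. Ifitm1 had no read in any library. Other genes and pseudogenes share 10.02% of the 50-base words of Ifitm3, and 3.18% are shared with Ifitm2.

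Ifi35 encodes a leucine zipper protein that binds NMI and modulates interferon and inflammatory signalling. Ifi35 (ENSMUSG00000010358, chromosome 11, 101448407 to 101458698) was at 11.2 and 11.7 CPM in controls and at 8.71 and 8.77 CPM in treated cells. The treated pair differed by less than the controls and lay below them. The fall was 1.31-fold (log2 fold change -0.39, SE 0.10, edgeR adjusted p = 0.0222), and leaving out any library ended the call (adjusted p from 0.0641 to 0.204). An antisense gene, Gm11626, overlaps 16.8% of its exon bases, and no source used here says whether the counting used strand. The partner gene Nmi, also named after its values were seen, did not pass (log2 fold change -0.23, SE 0.097, adjusted p = 0.173).

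Parp9 and Parp14 encode macrodomain proteins of the ADP-ribosyltransferase family that have been linked to interferon signalling, and Parp9 works with the ubiquitin ligase DTX3L. Both genes lie on chromosome 16 with Dtx3l between them: Parp14 at 35832874 to 35871544, Dtx3l at 35926511 to 35939151 and Parp9 at 35938470 to 35972605. Parp14 (ENSMUSG00000034422) was at 7.27 and 7.53 CPM in controls and at 5.11 and 5.13 CPM after EM-plasma, and the replicates of each group nearly coincided. It fell 1.45-fold (log2 fold change -0.53, SE 0.13, edgeR adjusted p = 0.0112). Its size was stable when a library was left out (-0.56 to -0.50), but its call ended in each of those fits (adjusted p from 0.063 to 0.173).

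Parp9 (ENSMUSG00000022906) was the member with the widest gap between treated libraries. It was at 13.5 and 13.9 CPM in controls, at 10.3 CPM in EM-plasma 1 and at 13.4 CPM in EM-plasma 2, from 480 and 624 reads. EM-plasma 1 was well below the controls and EM-plasma 2 was just under them. The log2 fold change was -0.21 (95% interval -0.43 to 0.0078, edgeR adjusted p = 0.277), and it ranged from -0.034 without EM-plasma 1 to -0.41 without EM-plasma 2. Dtx3l starts beside Parp9 on the other strand, and their exons share 458 bases, which is 9.40% of the Parp9 exon bases. Dtx3l was at 12.5 and 12.7 CPM in controls, 10.98 CPM in EM-plasma 1 and 9.28 CPM in EM-plasma 2 (log2 fold change -0.31, SE 0.10, adjusted p = 0.0712). The lower of the treated libraries was therefore EM-plasma 1 for Parp9 and EM-plasma 2 for Dtx3l, and their ratio was 0.938 and 1.44 there against 1.09 and 1.10 in controls.

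**Figure D3:**
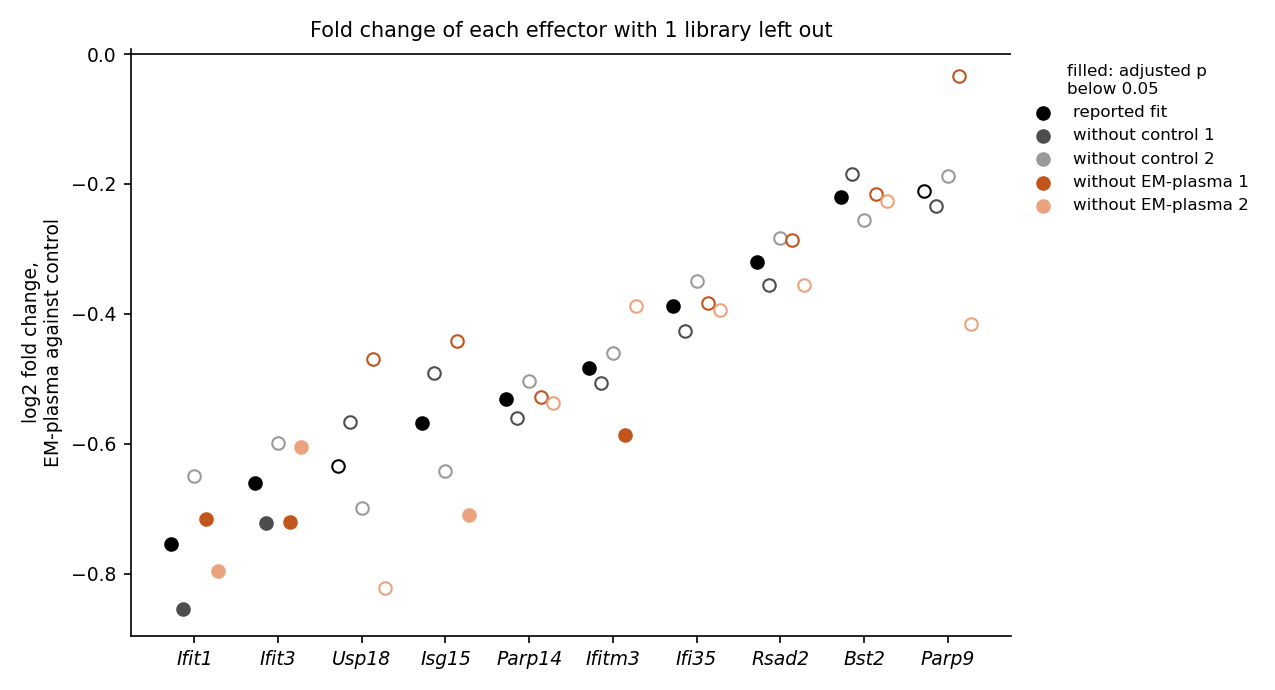
Log2 fold change of each effector (vertical axis) in the reported fit and in 4 fits that each leave out 1 library. Filled points have an adjusted p below 0.05. Every point lies below 0, Ifit1 and Ifit3 are filled in 3 of the 4 smaller fits, and Parp9 shifts most, between -0.034 and -0.41.

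Bst2 also led the members per kilobase of exon. In RPKM (CPM per kilobase of exon), the mean control level was 41.5 for Bst2, 16.5 for Ifitm3, 6.67 for Isg15 and 6.62 for Ifi35. It was 5.41 for Rsad2, 5.25 for Ifit3, 4.62 for Ifit1, 2.82 for Parp9, 0.938 for Usp18 and 0.795 for Parp14. Control values overlapped between Isg15 and Ifi35 and between Rsad2 and Ifit3, and the other neighbours in this order were apart. How the counting treated the reads that Ifit3 shares with Ifit3b is not stated, and the Ifit3 level depends on it.

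Of 20 close relatives and partners of these genes, 13 could be tested. Among them 3 fell (23.1%) and 0 rose, beside 2.88% and 3.34% of all tested genes. Their median log2 fold change was -0.23, and 13 of 13 were below 0, as were 6952 of all 13664 tested genes. The 3 were Ifit3b, Ube2l6 and Parp12, an antiviral ADP-ribosyltransferase gene that was at 40.8 and 41.9 CPM in controls and 35.1 and 34.1 CPM after treatment (log2 fold change -0.26, SE 0.064, edgeR adjusted p = 0.0135). Fewer or none of the 3 were called when a library was left out, and the share of all tested genes called lower fell in those fits as well.

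**Figure D4:**
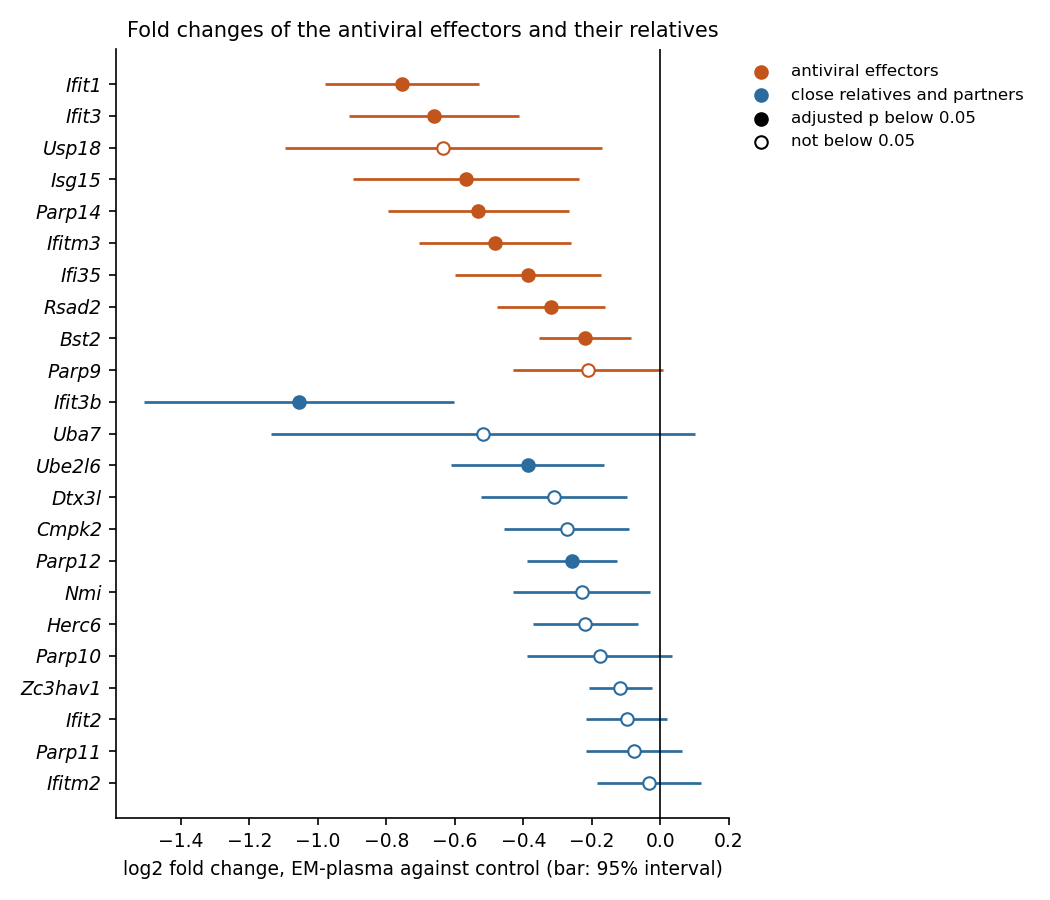
Log2 fold change with its 95% interval for the 10 effectors (orange) and their 13 tested relatives and partners (blue), filled where the adjusted p is below 0.05. Ifit3b lies furthest left at -1.05, and Ifit2 and Ifitm2 lie near 0 with intervals that include it.

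A wider list of 69 other interferon-stimulated effectors had 54 tested members, with a median log2 fold change of -0.24. Among the tested members 11 fell (20.4%) and 2 rose (3.70%), beside 2.88% and 3.34% of all tested genes. The share that rose was thus close to that over all tested genes. Lgals3bp, a secreted galectin-binding glycoprotein gene, fell 1.34-fold, from 155 and 147 to 112 and 113 CPM (log2 fold change -0.43, SE 0.050, edgeR adjusted p = 1.35e-06), and held in all 4 fits without a library. Ifi27, which encodes a small hydrophobic protein, fell 1.33-fold and Slfn9, of the Schlafen family, 1.25-fold. The GTPase genes Irgm2 and Gbp7, which act at the vacuoles of intracellular pathogens, fell 1.94-fold and 2.16-fold from low levels of 4.72 ± 0.331 and 3.49 ± 0.708 CPM. The 2 that rose were Cxcl10, a chemokine gene, at 41.3 and 40.6 CPM in controls and 53.7 and 54.5 CPM in treated cells (log2 fold change 0.40, SE 0.061, edgeR adjusted p = 6.82e-05), and Lgals9, named after its values were seen (0.22, SE 0.058, adjusted p = 0.0211). When control 2 was left out, Lgals3bp alone was called in this list. Fewer genes were also called lower in each of the other 3 fits without a library. The share of all tested genes called lower was smaller there too. The Cxcl10 rise held in those 3 fits, and the Lgals9 rise in none of them (adjusted p from 0.0723 to 0.482). The Irgm2 call also ended without control 1 (adjusted p = 0.0529), and that of Slfn9 without EM-plasma 1 (adjusted p = 0.0593).

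Among 27 tested receptors, sensors and signalling genes 6 fell (22.2%) and 0 rose, beside 2.88% and 3.34% of all tested genes. The median log2 fold change was -0.069. The cytosolic RNA sensor gene Ddx58 (RIG-I) fell 1.58-fold, from 31.5 and 34.9 to 21.0 and 21.0 CPM (log2 fold change -0.66, SE 0.073, edgeR adjusted p = 5.07e-07), and Ifih1 (MDA5), the other main sensor, fell 1.58-fold as well (adjusted p = 0.000406). Irf9, which encodes the DNA-binding subunit of ISGF3, fell 1.28-fold, from 16.3 and 15.3 to 13.1 and 11.6 CPM (adjusted p = 0.0223). Stat2 was at 20.1 and 17.9 CPM in controls and 18.5 and 18.2 CPM after treatment (log2 fold change -0.053, 95% interval -0.22 to 0.12; 0.027 without control 1). Irf1, an interferon-induced activator, fell 1.21-fold (adjusted p = 0.0361). Irf7, the factor that amplifies type I interferon production, was near its detection limit, with 37 and 14 reads in controls and 4 and 3 in treated libraries (adjusted p = 0.00953). Stat2 and the receptor genes were named after their values were seen. Receptor subunits for type I interferon did not pass: the log2 fold change was -0.052 for Ifnar1 (95% interval -0.16 to 0.053) and -0.11 for Ifnar2 (-0.26 to 0.041). Ddx58 passed whichever library was left out. Ifih1 passed in 3 of those fits, Irf9 in 1, and Irf1 and Irf7 in 0. Fewer than 6 signalling genes were called in each fit without a library, where the share of all tested genes called lower fell too.

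**Figure D5:**
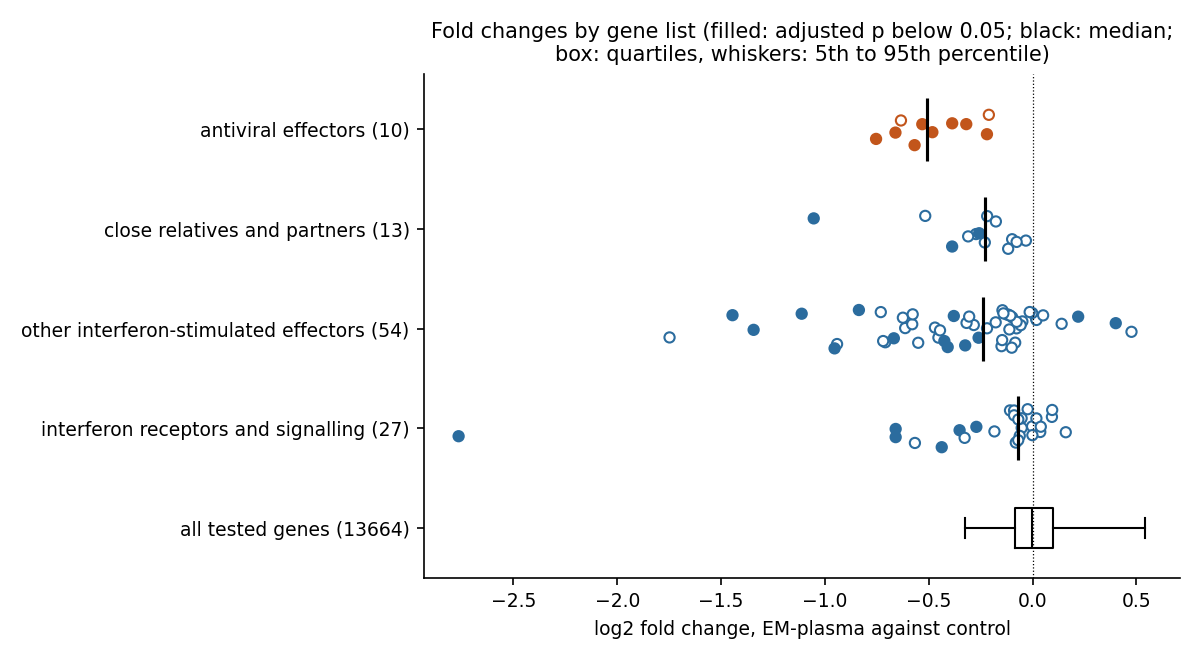
Log2 fold changes of the tested members of each list, with filled points where the adjusted p is below 0.05 and a black line at the median, above a box of all 13664 tested genes. The medians are -0.51 for the effectors, -0.23 for relatives, -0.24 for other interferon-stimulated effectors and -0.069 for receptors and signalling, beside -0.0027 for all genes.

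No interferon gene was expressed at a testable level. Of 21 interferon genes listed 19 had no read in any library, among them Ifnb1 and Ifng, which allows up to 0.0609 to 0.0644 CPM per library at 3 counts. The other 2, Ifne and Ifnz, had at most 1 and 4 reads. These limits cover counting error only.

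Counted by gene, the ISRE core was present in a window of 5 of 19 close relatives and partners, 25 of 55 other interferon-stimulated effectors and 5 of 23 receptors and signalling genes. Among all 27025 genes with a window the share was 3.99%. Ifitm2, whose level overlapped between groups, held 1 core, while Cmpk2 and Dtx3l held neither motif. Both RefSeq windows of Ifit2 also lacked the ISRE core, which says only that these letters are not in those windows.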

How the data were processed

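Poly(A) RNA of 4 B16 libraries was measured. Libraries were made with a stranded kit, per the labels' protocols. The submitters' processing notes name GRCm38, HTSeq, TopHat2 2.1.1, edgeR and CASAVA, with no roles. No source used here gives the strand setting or the annotation release. The authors deposited whole-number read counts per Ensembl gene. They also deposited a scaled signal per library, which equalled each count times 1 constant and served only to check columns. Exon lengths and positions came from GENCODE M21. Symbols came from a reference list of gene names, or from GENCODE M21 where that list had none. In the lists 1 gene was found under another symbol, through RefSeq synonyms. No symbol was found for 105 of 53465 rows (at most 0.0064% of counts).

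Genes passing filterByExpr (13664) were scaled by TMM and tested with edgeR 4.0.16 (R 4.3.3), quasi-likelihood, two-sided, group alone, Benjamini-Hochberg over all genes, called below 0.05. SE is the absolute log2 fold change over the square root of F. Alternatives used DESeq2 1.42.0, limma 3.58.1, other scalings, filters and dispersion, a replicate block, and each library left out. Members and lists were chosen with earlier results of these data known. Named genes are the members, partners bearing on their counting or promoter, up to 6 called genes per list by smallest adjusted p, and the 5 nearest profiles. Others are marked, and 1 gene that this rule names is not reported here. Ifit1bl1 and Ifitm1 were not tested, for low counts.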

Additional observations from a re-analysis of the deposited data

How the results depend on the processing

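The 10 effectors kept a log2 fold change below 0 under all 12 alternatives. The number called lower (8) was 7 with upper quartile scaling, 4 with DESeq2 and 0 without a filter on low counts, where 14 of all genes were called and 0 relatives and partners, 0 other effectors in either direction and 0 signalling genes. The cause was not tested. DESeq2 called 539 of all genes and 3 signalling genes. Without 1 library the calls ranged from 0 to 3 for effectors, 71 to 547 for all genes (849 in the reported fit), 0 to 1 for relatives, 1 to 7 lower and 0 to 1 higher for other effectors, and 1 to 3 for signalling genes. In those fits the lone library is assumed to vary like the other group, and the variance estimate changed: total degrees of freedom were 5.71 and 5.27 without control 1 and 2, and 14081 and 14097 without EM-plasma 1 and 2, against 27.5. The replicate numbers are not stated to pair libraries, and the same-numbered deviations correlated at 0.078 over genes. With the replicate block 1683 genes were called, 9 effectors (Usp18 joined), 7 relatives and 8 signalling genes. Without 1 library the log2 fold change of Ifitm2 ranged from -0.096 to 0.026 and that of Stat2 from -0.13 to 0.027. With 2 libraries a group, the median SE of a log2 fold change was 0.070 over all tested genes, and the largest among members was 0.23, for Usp18, which had the fewest reads.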

Other observations

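Outside the lists, 5 genes followed the effectors' median profile most closely, by Euclidean distance of log2 CPM values centred on each gene's mean over the 4 libraries, among 11420 candidates. They were chosen by these values, which are given as a description with no test. Txnip, which encodes the thioredoxin-binding arrestin that restrains glucose uptake, was at 52.1 and 49.3 CPM in controls and 36.7 and 39.0 CPM in treated cells (distance 0.051). Armc2, an armadillo repeat gene, was at 11.1 and 11.4 CPM, then 7.87 and 8.81 CPM. Ttc32, a tetratricopeptide repeat gene, was at 5.85 and 5.91 CPM, then 4.35 and 4.53 CPM. Dnajb13, a co-chaperone gene of cilia and flagella, was at 2.60 and 2.78 CPM, then 1.78 and 1.95 CPM. The predicted gene Gm45606 had the smallest distance (0.041), at 1.62 and 1.67 CPM, then 1.09 and 1.16 CPM. None of these 5 is in the lists of interferon genes used here. The members' own median distance from that profile was 0.19. The 5 were picked as the nearest of all candidates and the members were not, so their distances cannot be compared.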
